A study of Bos taurus with 32 samples.

Results

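The miR-26 family was described in the subcutaneous and visceral fat of beef steers, as 2 of the 672 bovine miRNAs on an Agilent miRNA array, bta-miR-26a and bta-miR-26b. The members were chosen by name alone, as the array names bta-miR-26a, bta-miR-26b and bta-miR-26c, and bta-miR-26c was not among the names of the array. Total RNA of 16 Hereford × Aberdeen Angus steers was hybridized with a single dye, 1 array per sample. The 32 arrays made 4 groups of 8, subcutaneous fat (backfat) or visceral fat (perirenal fat) of yearling steers fed the Control diet or the High fat diet until slaughter, and each steer gave both depots. The high fat diet differed by its added flaxseed, and it was fed to other steers than the control diet. Whole tissue was extracted, so fewer cells of a type and less miRNA per cell cannot be told apart. Every group had a slide of its own and every diet a scan session of its own, so slide and group, like session and diet, cannot be told apart.

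MiRNAs are short RNAs that bind messenger RNAs, largely through the bases near their 5′ end called the seed, and lower the output of those messengers. The members of the miR-26 family share a seed, differ at very few bases and are encoded inside introns of genes for small C-terminal domain phosphatases, which restrain transcription and the entry into the cell cycle. In human fat cell precursors the family is known to rise during differentiation and to be needed for it, with the protease ADAM17 as a target, while EZH2, a chromatin enzyme, is a target known from other cells.

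RefSeq (ARS-UCD2.0) lists 4 loci of the family in cattle. MIR26B lies inside CTDSP1, MIR26A-2 inside CTDSP2 and MIR26A-1 inside CTDSPL. MIR26C, which RefSeq also lists as bta-mir-3603, overlaps MIR26A-1. The array measured bta-miR-26a under 1 name, so the product of MIR26A-1 could not be told from that of MIR26A-2. The array carried bta-miR-3603 under its own name, and it was called detected on 0 of 32 arrays.

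Both members were measured well. Feature Extraction, the scanner software, called bta-miR-26a and bta-miR-26b detected on 32 of 32 arrays. Each was read by 2 probes of 10 spots each. Of the 1280 spots for the family on all arrays, 0 were saturated, 7 were not well above background and 38 (2.97%) carried an outlier mark. The software's own error of the total intensity was 7.79% to 10.2% of the signal.

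As deposited, before any scaling between arrays, the total intensity of both members was far higher in steers fed high fat diet. For bta-miR-26a it was lowest at 52.4, with a median of 181 and a highest value of 334, in subcutaneous fat of control steers, and it was 1555, 2319 and 3920 in steers fed high fat diet. In visceral fat the lowest, median and highest intensity of bta-miR-26a were 66.4, 115 and 268 in control steers and 875, 1482 and 2689 in steers fed high fat diet. Every array of the high fat diet was brighter for bta-miR-26a than every control array. For bta-miR-26b the subcutaneous values were 27.1, 106 and 259 in control steers and 1700, 2543 and 4071 in steers fed high fat diet. The visceral values of bta-miR-26b were 33.7, 90.0 and 196 in control steers and 680, 1303 and 2707 in steers fed high fat diet, again without overlap. The ratio of group medians, high fat over control, was 12.8 and 12.9 for bta-miR-26a in subcutaneous and visceral fat, and 23.9 and 14.5 for bta-miR-26b.

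Whole arrays differed in the same direction. The summed intensity of all miRNAs had a ratio of medians of 5.42, high fat over control, whereas the 2 labelling spike-ins had a ratio of 0.847 and the local background one of 0.957. bta-miR-181a, the reference of the study's qRT-PCR, had ratios of 1.88 in subcutaneous and 1.73 in visceral fat. For the comparisons, the total intensity was therefore divided by its array's 75th percentile, taken over the 91 miRNAs that all 32 arrays detected, and the log2 of this scaled intensity was tested. On this scale a value of 0 is the 75th percentile.

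After scaling, bta-miR-26a was 1.81-fold higher in subcutaneous fat and 2.05-fold higher in visceral fat of steers fed high fat diet, and bta-miR-26b was 3.42-fold and 2.78-fold higher. These directions are relative to the scaling and turned for both members under the 75th percentile over all miRNAs, and for bta-miR-26a with the deposited log2 values. Neither member passed the test between depots on this scaling. The plot of log2 scaled intensity by group shows both members on every array.

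**Figure D1:**
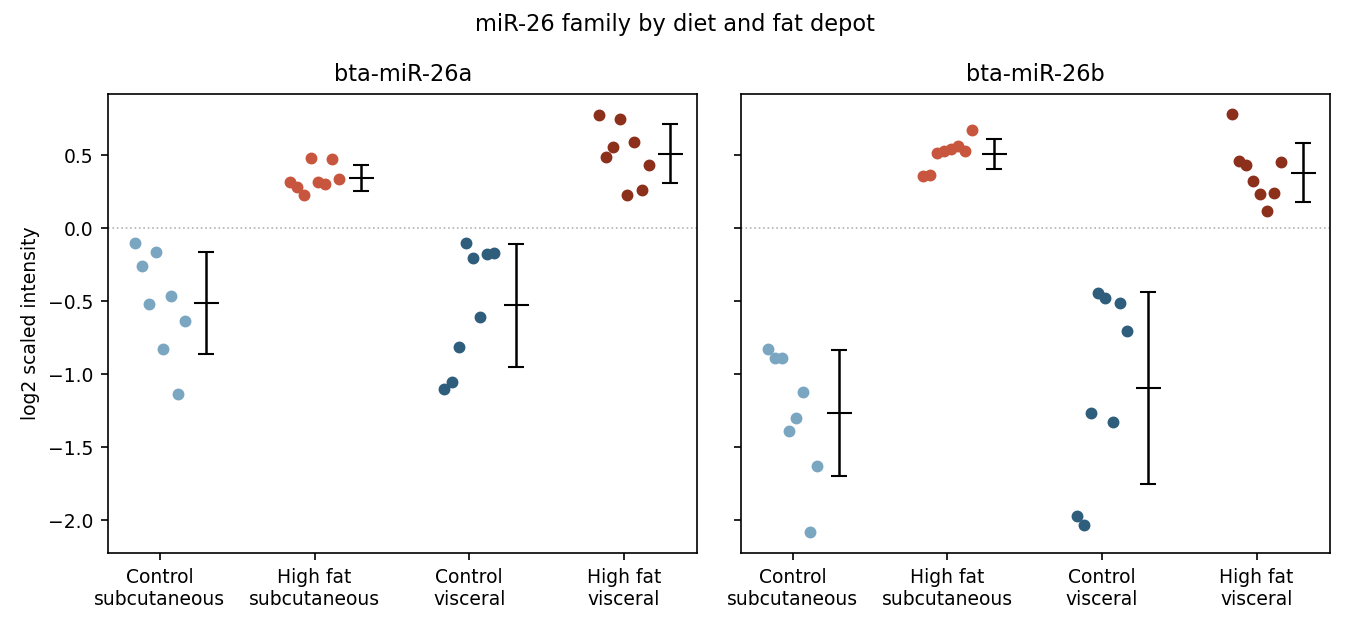
Points are single arrays (8 per group), drawn by group on the x axis against log2 scaled intensity on the y axis for bta-miR-26a and bta-miR-26b. Black bars are the mean ± SD. All high fat arrays lie above 0 and all control arrays below it for both members, on this scaling.

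In subcutaneous fat, the log2 scaled intensity of bta-miR-26a ranged from -1.13 to -0.10 in control steers (median -0.49) and from 0.23 to 0.48 in steers fed high fat diet (median 0.32). The groups did not overlap, and the lowest array was that of control steer 405. The means were -0.51 ± 0.35 and 0.34 ± 0.088 (SD, n = 8 each). The difference was 0.86 ± 0.15 (SE), with a limma adjusted p of 6.68e-06 and a 95% confidence interval of the fold from 1.47 to 2.24.

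For bta-miR-26b in subcutaneous fat, values ran from -2.08 to -0.83 in control steers (median -1.21) and from 0.36 to 0.67 in steers fed high fat diet (median 0.53). Control steer 405 was again lowest, and the diets did not overlap. The means were -1.27 ± 0.43 and 0.51 ± 0.10 (SD, n = 8 each). The difference was 1.78 ± 0.20 (SE), with a limma adjusted p of 3.25e-09 and a fold interval from 2.57 to 4.56.

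In visceral fat, bta-miR-26a ranged from -1.10 to -0.10 in control steers (median -0.40) and from 0.23 to 0.78 in steers fed high fat diet (median 0.52). Control steers 108 and 111 had the lowest values, and no array of one diet fell within the range of the other. The means were -0.53 ± 0.42 and 0.51 ± 0.20 (SD, n = 8 each), a difference of 1.04 ± 0.15 (SE) with a limma adjusted p of 2.53e-07. The fold interval was 1.66 to 2.54.

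Visceral bta-miR-26b ranged from -2.03 to -0.45 in control steers (median -0.98) and from 0.12 to 0.78 in steers fed high fat diet (median 0.38). The same control steers, 108 and 111, were lowest, and the diets did not overlap. The means were -1.09 ± 0.66 and 0.38 ± 0.20 (SD, n = 8 each), a difference of 1.47 ± 0.20 (SE) with a limma adjusted p of 1.23e-07. The fold interval was 2.08 to 3.70.

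Most miRNAs passed the diet test, so the calls alone did not set the family apart. Of 233 miRNAs tested, 76% were called in subcutaneous fat, 41.6% higher and 34.3% lower, and 71.7% in visceral fat, 42.1% higher and 29.6% lower. Both members were called higher in both depots. Diet groups did not overlap, with the high fat diet higher, for 33% of the miRNAs tested in subcutaneous and 28.3% in visceral fat, and for both members.

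The size of the difference was then read against the miRNAs that were detected everywhere. Among the 91 miRNAs detected on all arrays, the median diet difference was -0.91 (log2) in subcutaneous and -0.80 in visceral fat. Only 28 were called higher in subcutaneous fat and 30 in visceral fat, against 52 and 50 called lower. Relative to that median, bta-miR-26a was higher by 1.76 in subcutaneous and 1.83 in visceral fat, both as log2 values. For bta-miR-26b these relative differences were 2.68 and 2.27. Of the 91 miRNAs, 8 had a larger difference than bta-miR-26b in subcutaneous fat and 12 in visceral fat, and 20 had a larger one than bta-miR-26a in each depot.

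The median over these 91 miRNAs is what the choice of scaling moved. It lay between -5.05 and 2.26 in subcutaneous fat over 11 ways of scaling or reading the signal, the one above included, and between -5.24 and 2.08 in visceral fat. The diet difference of bta-miR-26a was above 0 under 9 of the 11 and that of bta-miR-26b under 10 of the 11, in each depot. The position relative to the median moved little. For bta-miR-26a it was 1.66 to 1.91 in subcutaneous and 1.83 to 2.06 in visceral fat, and for bta-miR-26b 2.56 to 2.74 and 2.17 to 2.50. A scaling that divides a whole array by 1 number cancels in this relative value, which leaves quantile normalization, the single spot intensities and the normexp background correction as the alternatives that could move it.

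**Figure D2:**
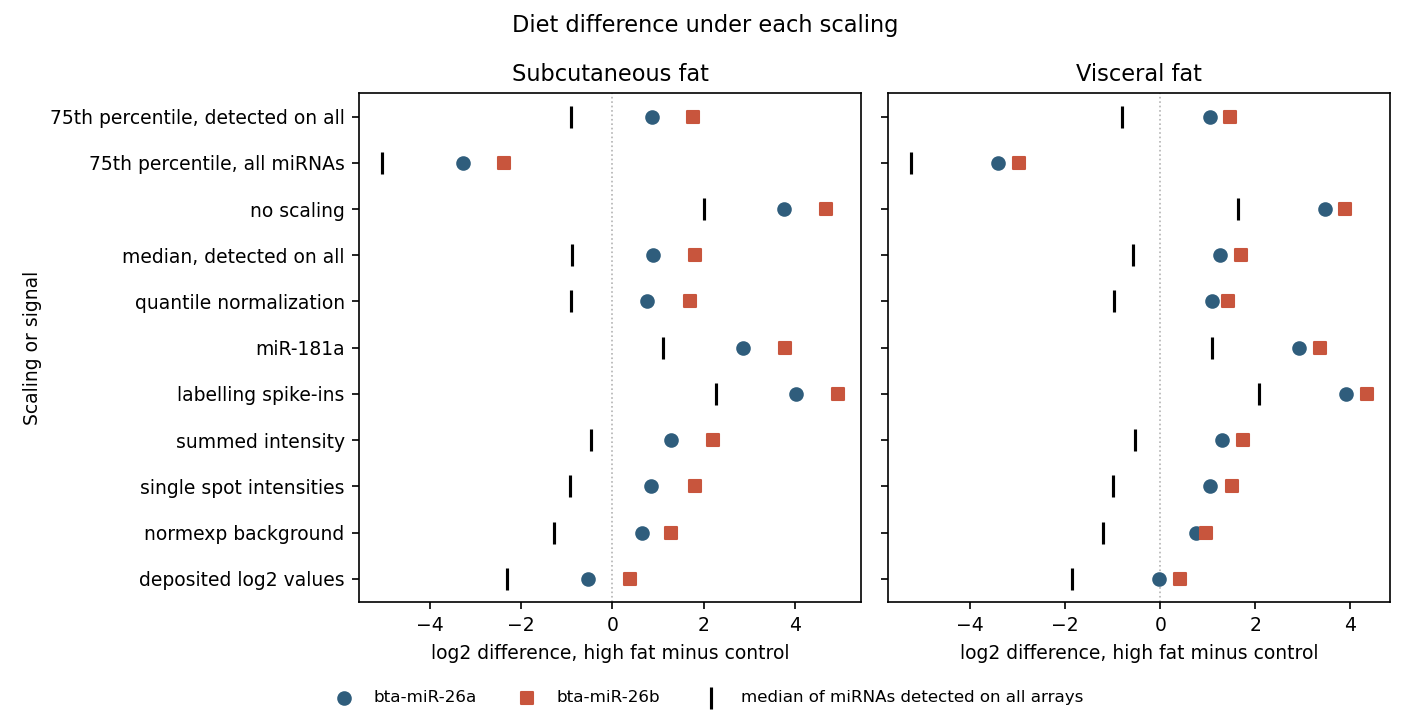
Each line of the y axis is a way of scaling or reading the signal, and the x axis is the log2 difference between high fat and control diet in subcutaneous (left) and visceral fat (right). Circles are bta-miR-26a, squares bta-miR-26b and vertical ticks the median of the 91 miRNAs detected on all arrays. Both members lie to the right of the tick in every line of both panels, and the whole set moves across 0 with the scaling.

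In both settings that turned signs, the percentile or shift of an array lay at its lowest value on most control arrays. The part of this in the turned signs was not tested. A miRNA that is not detected holds the fill value of 0.1 in the deposited intensities. The 75th percentile over all miRNAs was 0.1 on 7 of 8 control arrays of subcutaneous fat and 8 of 8 of visceral fat, whereas the high fat arrays had 16.9 to 26.5 and 5.47 to 29.8. In the deposited log2 values the shift of an array was 0 on 14 of the 16 control arrays and on 0 of the 16 high fat arrays. With those values bta-miR-26a differed between diets by -0.54 in subcutaneous fat (limma adjusted p = 0.104) and -0.030 in visceral fat (limma adjusted p = 0.992). For bta-miR-26b the differences were 0.38 (adjusted p = 0.306) and 0.41 (adjusted p = 0.287), with limma.

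Between depots, the levels of both members lay close together. bta-miR-26a differed between visceral and subcutaneous fat by -0.015 on the control diet (95% interval -0.32 to 0.29, limma adjusted p = 1) and by 0.17 on the high fat diet (-0.14 to 0.47, adjusted p = 0.478). Visceral fat was higher in 4 of 8 control steers and in 6 of 8 steers fed high fat diet. bta-miR-26b differed by 0.17 on the control diet (-0.24 to 0.59, limma adjusted p = 0.739) and by -0.13 on the high fat diet (-0.54 to 0.29, adjusted p = 0.735). Visceral fat was higher for bta-miR-26b in 4 of 8 control steers and in 2 of 8 steers fed high fat diet. The background was 18.9% of miRNAs called between the depots of control steers and 26.2% between those of steers fed high fat diet, and neither member was among them. Without any scaling, bta-miR-26b was called lower in visceral fat of steers fed high fat diet (-1.0, limma adjusted p = 0.0265).

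Single control steers differed between depots by much more than their group means did. The visceral minus subcutaneous difference of bta-miR-26a ran from -1.0 to 0.96 over the control steers and from -0.21 to 0.46 over the steers fed high fat diet. For bta-miR-26b it ran from -1.15 to 1.57 and from -0.45 to 0.42. Control steers 108 and 405 marked opposite ends for both members, with steer 108 lower and steer 405 higher in visceral fat. The subcutaneous array of steer 405 had the lowest 75th percentile of all arrays, 115. Of its 40 spots for the family, 34 were well above background.

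The depot difference did not itself differ detectably between diets. For bta-miR-26a it was larger by 0.18 on the high fat diet (95% interval -0.25 to 0.61, limma adjusted p = 0.832). For bta-miR-26b the change was -0.30 (-0.89 to 0.28, limma adjusted p = 0.761). Of all miRNAs tested, 1.72% were called in this comparison. From lowest to highest mean, bta-miR-26a stood in the order control visceral, control subcutaneous, high fat subcutaneous and high fat visceral. For bta-miR-26b the order was control subcutaneous, control visceral, high fat visceral and high fat subcutaneous. In both orders only the middle neighbours, 1 control and 1 high fat group, differed past the threshold.

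Both members moved together over the arrays. Pearson's r of their log2 scaled intensities was 0.947 over 32 arrays, and 0.841 after the mean of its group was taken from each array. The points share the array, its scaling and its brightness, so these values are descriptions only. The 2 probes of bta-miR-26a correlated at 0.996 with each other, those of bta-miR-26b at 0.986, and a probe of one with a probe of the other at 0.938 to 0.960. Whether the probes of one member also bound the other was not tested.

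**Figure D3:**
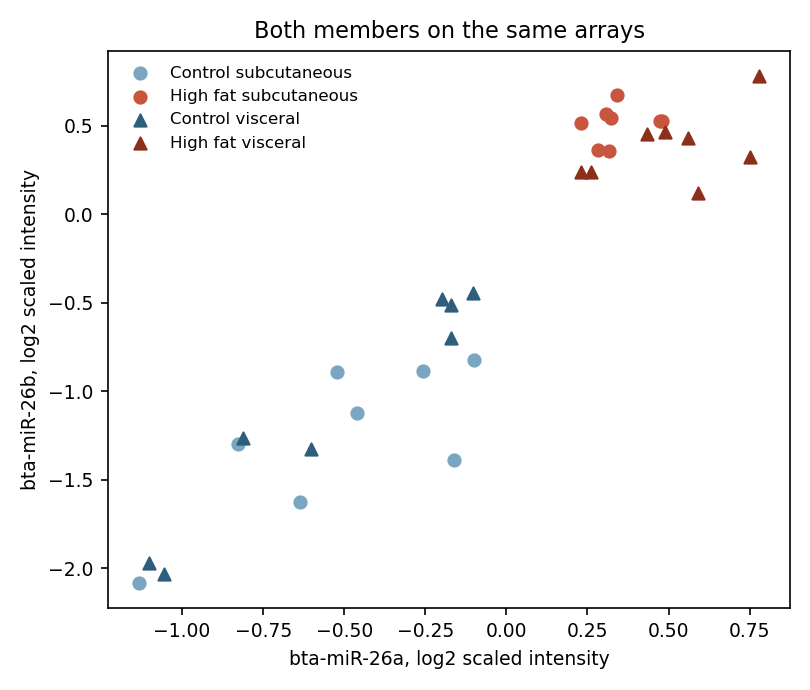
Each point is 1 of 32 arrays, with the log2 scaled intensity of bta-miR-26a on the x axis and of bta-miR-26b on the y axis. Circles are subcutaneous and triangles visceral fat, blue the control and red the high fat diet. The control arrays spread along a rising band, and the high fat arrays form a tight cloud at the upper right in which the circles sit left of or above most triangles.

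The members nevertheless did not move by the same amount. The intensity of bta-miR-26b divided by that of bta-miR-26a within an array needs no scaling, since any factor of the array cancels. This ratio rose with the high fat diet in both depots, and more in subcutaneous than in visceral fat. On the high fat diet it was lower in visceral than in subcutaneous fat of every steer.

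In subcutaneous fat the log2 ratio of bta-miR-26b to bta-miR-26a ran from -1.23 to -0.37 in control steers (median -0.69) and from 0.041 to 0.33 in steers fed high fat diet (median 0.15). The diets did not overlap. The means were -0.75 ± 0.29 and 0.17 ± 0.12 (SD, n = 8 each). The ratio was 1.89-fold higher on the high fat diet, a log2 difference of 0.92 ± 0.11 (SE). Its two-sided exact permutation p was 0.000155, the smallest that 8 arrays against 8 can give. After adjustment over the 5 comparisons of the ratio it was 0.000389. The log2 difference was 0.65 with the normexp background correction (exact permutation, adjusted p = 0.000777).

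In visceral fat the log2 ratio of bta-miR-26b to bta-miR-26a ran from -0.98 to -0.28 in control steers (median -0.49) and from -0.47 to 0.021 in steers fed high fat diet (median -0.022). Here the diets overlapped, through steers 303 and 204 of the high fat diet. The means were -0.56 ± 0.26 and -0.13 ± 0.20 (SD, n = 8 each). The difference was 0.43 ± 0.12 (SE), 1.35-fold, with an exact permutation p of 0.0028 (0.00466 adjusted). With the normexp background correction it was 0.21 (exact permutation, adjusted p = 0.0179).

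Between depots the log2 ratio of bta-miR-26b to bta-miR-26a differed by 0.19 ± 0.14 (SE) on the control diet, where 4 of 8 steers were higher in visceral fat (exact permutation p = 0.185). With the normexp background correction this difference was 0.16 and passed the threshold (exact permutation, adjusted p = 0.0179). In steers fed high fat diet the ratio differed by -0.30 ± 0.084 (SE). It was negative in 8 of 8 steers, from -0.73 in steer 303 to -0.039 in steer 103, and the depots did not overlap. The exact permutation p was 0.000155 (0.000389 adjusted). With the steer as a block an exact sign-flip test gave 0.00781 (0.0156 adjusted over the sign-flip tests of both diets only). The depot difference of the ratio was lower by 0.49 ± 0.17 (SE) on the high fat than on the control diet (exact permutation p = 0.0121, 0.0152 adjusted).

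**Figure D4:**
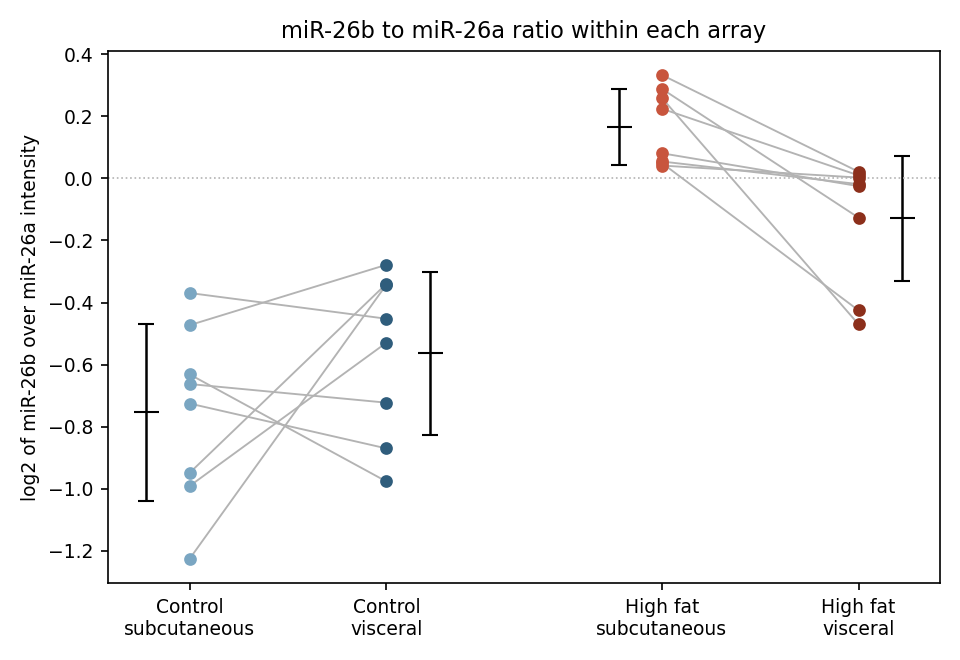
The y axis is the log2 of the intensity of bta-miR-26b over that of bta-miR-26a within an array, and the x axis is the group. Points are arrays, grey lines join both depots of a steer, and black bars are the mean ± SD (n = 8). All 8 lines of the high fat diet fall from subcutaneous to visceral fat, while the control lines run in both directions.

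The ratio was set beside the brightness of the arrays, since the 75th percentile did not overlap between diets. It was 115 to 480 and 138 to 301 on control arrays of subcutaneous and visceral fat, and 1322 to 2823 and 626 to 2294 on high fat arrays. Brightness and diet therefore cannot be told apart between the diets. On the high fat diet, brightness went with depot as well. All visceral arrays but that of steer 302 (2294) lay below the dimmest subcutaneous one (1322). Within the groups control subcutaneous, high fat subcutaneous, control visceral and high fat visceral, Pearson's r of the log2 ratio with the log2 percentile was 0.47, -0.28, 0.57 and 0.41, and Spearman's rho was 0.38, -0.24, 0.57 and 0.33 (exact permutation, adjusted p of 0.325 to 0.487 and of 0.571 to 0.582 over the 4 groups). Without the 2 arrays farthest from the median percentile, r was -0.057, -0.32, 0.64 and -0.19. Of the visceral high fat arrays, the 2 dimmest by this percentile, those of steers 303 and 412, held the lowest and the highest ratio of bta-miR-26b to bta-miR-26a, -0.47 and 0.021. These 2 arrays were named after their values were seen. The part of brightness in the differences of the ratio was not tested.

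Each single probe gave the same picture. For both probes of bta-miR-26a the diet difference was 0.84 and 0.86 in subcutaneous fat, and it was 1.06 and 1.03 in visceral fat. For both probes of bta-miR-26b it was 1.83 and 1.76, and 1.55 and 1.45. The ratio from any 1 probe of each member differed between diets by 0.90 to 0.98 in subcutaneous and 0.39 to 0.51 in visceral fat, and between depots on the high fat diet by -0.34 to -0.22. These ratios passed the exact permutation test in every pairing of probes.

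The miRNAs whose pattern was most like the family were then named, by Pearson's r of log2 scaled intensity with each of the other 90 miRNAs detected on all 32 arrays. For bta-miR-26a the closest after bta-miR-26b were bta-miR-107 (r = 0.930), encoded inside a pantothenate kinase gene, bta-miR-126 (0.921), known from the vessel lining, bta-miR-30c (0.916) and bta-miR-140 (0.911). For bta-miR-26b they were bta-miR-15a (0.962), bta-miR-30b-5p (0.949), bta-miR-26a (0.947), bta-miR-126 (0.943) and bta-miR-195 (0.936). bta-miR-15a and bta-miR-195 belong to one family, known to restrain the cell cycle.

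These miRNAs differed in the same direction between diets, by different amounts. They were chosen by r over the arrays of both diets, which did not overlap for either member. The shared direction and its calls therefore follow from the choice. bta-miR-30b-5p had the largest diet difference of those named, 3.16 ± 0.28 (SE) in subcutaneous and 3.14 ± 0.28 in visceral fat. bta-miR-15a differed by 2.57 ± 0.31 and 2.50 ± 0.31, bta-miR-126 by 2.11 ± 0.19 and 2.03 ± 0.19, and bta-miR-195 by 1.85 ± 0.27 and 1.96 ± 0.27. For bta-miR-107 the values were 1.25 ± 0.15 and 1.27 ± 0.15. All passed limma's test in both depots on this scaling.

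With the group means removed, the set that stood closest changed in part. bta-miR-26b followed bta-let-7g (r = 0.905), bta-miR-126 (0.880), bta-miR-151* (0.842), bta-miR-26a (0.841) and bta-miR-195 (0.820). bta-miR-26a followed bta-miR-26b (0.841), bta-miR-151* (0.825), bta-miR-24-3p (0.789), bta-miR-107 (0.784) and bta-miR-126 (0.776). Diet differences in this set were smaller for bta-let-7g, 0.65 ± 0.16 (SE) in subcutaneous and 0.50 ± 0.16 in visceral fat, and for bta-miR-151*, 0.41 ± 0.15 and 0.75 ± 0.15.

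Other miRNAs known to act in fat cell formation gave the setting of the family. Of 20 tested miRNAs known to promote it, 16 were called higher and 2 lower in subcutaneous fat of steers fed high fat diet, and 18 higher and 1 lower in visceral fat. Of the 20, 8 were detected on all 32 arrays, and the values of the others rest in part on the floor set for undetected arrays. A miRNA undetected on control arrays stands at the floor there, so it could be called higher but hardly lower. Some of the 20, such as bta-miR-19a, passed the detection filter through high fat arrays. The list was also chosen with earlier results of these data known, so its counts are descriptions only. As background, calls of a higher level made up 41.6% (subcutaneous) and 42.1% (visceral) of all miRNAs tested. Calls of a lower level made up 34.3% and 29.6%. The 20 hold several members of the miR-30 family and of the miR-17 cluster with its relatives, so they are not 20 separate observations. The median diet difference of the 20 was 1.65 and 1.54, beside 0.099 and 0.17 over all miRNAs tested. The largest were bta-miR-19b (5.17 and 4.68) and bta-miR-19a (4.13 and 4.25), growth-promoting members of the miR-17 cluster and its relative. They were detected on 26 and 16 of 32 arrays, so these fitted values rest on the floor set for undetected arrays and are no bounds. Of the same list bta-miR-92 was lower in both depots (-1.73 and -1.98) and bta-miR-378 in subcutaneous fat (-0.64), both named after their values were seen.

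Of 19 tested miRNAs known to restrain fat cell formation, 6 were called higher and 7 lower in subcutaneous fat. In visceral fat the numbers were 5 and 7. Over all miRNAs tested, 41.6% were called higher and 34.3% lower in subcutaneous fat, and the visceral shares were 42.1% and 29.6%. The same 7 were lower in both depots, the let-7 members bta-let-7a, bta-let-7b, bta-let-7c, bta-let-7d, bta-let-7e and bta-let-7f together with bta-miR-155, a miRNA of activated immune cells. These 7 were named after their values were seen. Of the 19 miRNAs, 11 were detected on all 32 arrays, these 7 among them. Among the 91 miRNAs detected on all arrays, 52 were called lower in subcutaneous and 50 in visceral fat. Of the other let-7 members tested, bta-let-7g was called higher in both depots and bta-let-7i was called in neither. Between depots, 1 to 3 members of either list were called in each direction on each diet, beside 18.9% of all miRNAs called in either direction in control steers and 26.2% in steers fed high fat diet. Lists were counted on the main scaling alone, and their diet directions move with the scaling as those of the family do.

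MiRNAs of other cell types were followed beside the family, and their calls stand beside the 76% of all tested miRNAs called in subcutaneous and 71.7% in visceral fat. Both vessel miRNAs, bta-miR-126 and bta-miR-126*, were called higher on the high fat diet in both depots. Their summed scaled intensity was 0.578 to 1.50 on control and 3.57 to 4.84 on high fat arrays in subcutaneous fat, and 0.863 to 2.42 and 5.09 to 8.23 in visceral fat. In control steers bta-miR-126* was detected on 2 of 8 subcutaneous and 3 of 8 visceral arrays, so its call rests on the floor. Of 5 tested miRNAs of blood and immune cells, 2 were called higher and 2 lower in subcutaneous fat, with summed intensities of 0.303 to 0.564 on control and 0.300 to 1.06 on high fat arrays. In visceral fat 2 were higher and 3 lower, with sums of 0.417 to 0.613 and 0.281 to 0.391. Both called higher, the same in each depot, were detected on at most 3 of 8 control and on 8 of 8 high fat arrays. Of 3 tested muscle miRNAs, 1 (bta-miR-1) was called higher in both depots. It was detected on 0 and 1 of 8 control arrays in subcutaneous and visceral fat, and on 8 of 8 high fat arrays. The calls of miRNAs undetected on control arrays rest on the floor. The summed intensity of the 7 muscle miRNAs on the array was 0 to 0.0291 and 0.0178 to 0.228 in subcutaneous fat, and 0 to 0.133 and 0.0475 to 0.0912 in visceral fat. Liver's bta-miR-122 was called detected on 3 of 32 arrays, all visceral. The part of these cell types in the difference of the family was not tested, and marker genes of fat cells are not measured by a miRNA array.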

How the data were processed

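Total RNA from subcutaneous and visceral fat of 16 steers was labelled with Cy3 and hybridized on 32 miRNA arrays. The authors scanned each array and deposited the Feature Extraction intensity of each spot, the total intensity of each miRNA (background-subtracted, not scaled between arrays, 0.1 where not detected) and a detection call. The files name the build HGSC Btau_3.1. The authors also deposited GeneSpring's log2 values, which were normalized by a 75th percentile. That table lists numbered features, which were matched to miRNAs by value (244 of 244 within 1e-04).

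Groups came from the diet and depot in the labels, pairs from the steer. Total intensities were divided by the array's 75th percentile over 91 miRNAs, lower values were raised to a floor of -7.22 (log2), and 233 of 240 miRNAs detected on at least 8 arrays and above the floor somewhere were fitted with limma 3.58.1 in R 4.3.3 (4 groups in 1 fit, two-sided, Benjamini-Hochberg adjusted p under 0.05). The log2 ratio of bta-miR-26b to bta-miR-26a was compared by two-sided exact permutation over arrays (SciPy 1.17.1), adjusted over 5 comparisons. The limma fit was tried on simulated data with independent noise, which hold no difference of brightness between diets and no effect of the slide. The members, the lists and the tests were chosen with earlier results of these data known.

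The text names the family, the qRT-PCR reference, the 5 miRNAs most like each member and some miRNAs of the lists. At most 8 miRNAs of the lists were to be named, and the text names more. Alternatives were other scalings, other signals and background corrections, another floor, other detection filters, blocks for steer and position on the slide, single probes, the methods' t-test and leaving out each array. Scaling to the summed intensity and the pairing of single probes were added after seeing the data. Since both depots came from the same animal, the steer pairs the arrays. The correlation of a steer's deviations from the group means between depots was -0.39 to 0.65, above 0.1 for 5 of 16 steers. The number of arrays limits the precision. RefSeq gave only names and neighbours, because its build differs from that of the files.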

Additional observations from a re-analysis of the deposited data

Results flagged for a closer look

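The depot difference of the log2 ratio of bta-miR-26b to bta-miR-26a (visceral minus subcutaneous fat) differed between diets, by -0.485 (exact permutation p = 0.0121, 0.0152 adjusted over 5 comparisons). It was 0.19 on the control diet, where 4 of 8 steers were higher in visceral fat, and -0.30 on the high fat diet, where 0 of 8 were. With the normexp background correction the difference was -0.44. Each group had its own slide, so slide and group cannot be told apart.

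Of 12 groups of 8 arrays examined for a single value far from the others, 0 held one for bta-miR-26a, bta-miR-26b or their ratio.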

How the results depend on the processing

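Of 105 values recomputed under other settings for comparisons past the threshold, 97 kept their direction and their side of it, and so did all 208 with 1 array left out. For comparisons not past the threshold, 122 of 124 values stayed there, as did all 208 with 1 array left out, but 13 and 6 changed sign. The 6 were depot differences of bta-miR-26a on the control diet (0.021 to 0.067). The other floor, the detection filters, the blocks and the methods' t-test could not move a member's difference, only its p. In the ratio the shift of the deposited values cancels, and leaving out an array outside a comparison keeps its difference. The counts therefore do not measure how far the values can move. The changed calls and turned diet differences were as follows. With the 75th percentile over all miRNAs, the diet differences were -3.29 and -3.41 for bta-miR-26a and -2.37 and -2.97 for bta-miR-26b, in subcutaneous and visceral fat. With the deposited log2 values they were -0.54 and -0.030 for bta-miR-26a, and 0.38 and 0.41, no longer past the threshold, for bta-miR-26b. Both settings use a percentile that sat at the fill value, or a shift of 0, on most control arrays. Under the other scalings and signals they were 0.64 to 4.02 and 0.76 to 3.91 for bta-miR-26a and 1.29 to 4.94 and 0.97 to 4.35 for bta-miR-26b, lowest with normexp and highest with the labelling spike-ins. Without scaling, bta-miR-26b was lower in visceral fat on the high fat diet (-1.0, limma adjusted p = 0.0265). With normexp, the ratio of bta-miR-26b to bta-miR-26a was higher in visceral fat on the control diet (0.16, exact permutation, adjusted p = 0.0179). The causes of these changes were not tested.

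The steer as a replicate block changed no call of a member. With it the diet difference stayed 0.86 for bta-miR-26a (limma adjusted p = 5.75e-06) and 1.78 for bta-miR-26b (2.30e-09) in subcutaneous fat. The number of miRNAs called between depots on the high fat diet was 61 with the main scaling and 9 to 184 under the alternatives, and on the control diet 44 and 4 to 44.

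The precision is limited by 8 arrays a group, by arrays whose brightness did not overlap between diets, and by a slide for each group. Dim signals on the control arrays stand closest to the background.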
